A study of Mus musculus with 27 samples.

Results

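The let-7 family guide strands are the 5′ strands of the let-7 hairpins, which are the strands that are loaded into Argonaute proteins. They were chosen by name: let-7a-5p, let-7b-5p, let-7c-5p, let-7d-5p, let-7e-5p, let-7f-5p, let-7g-5p, let-7i-5p and miR-98-5p. All 9 were found among the 844 mature microRNAs (miRNAs) listed in the series, and each was listed in all 27 libraries. The study sequenced small RNA of C57BL/6 mice in 4 parts, and the labels give no age, sex or pooling. The first part holds tissue of the suprachiasmatic nucleus (SCN, the circadian pacemaker of the hypothalamus), of the hypothalamus and of the cortex, with 2 libraries each. The second holds 3 types of SCN neuron named for their neuropeptides, AVP (vasopressin), VIP (vasoactive intestinal peptide) and CCK (cholecystokinin), with 2 libraries each. The third holds SCN tissue of LP and CTRL samples at circadian time 18 h, with 2 libraries each, which the design places under the response to light. The fourth is a time course of SCN tissue with 1 library every 4 h, ZT2 to ZT42 (zeitgeber time, hours), 11 libraries in all. The labels do not expand LP, do not say how the neurons were collected, and do not say whether the hypothalamus samples still held the SCN. Nor do they say that replicates came from separate animals, so the p-values measure the spread between these libraries, which may be technical.

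A let-7 hairpin is cut by Drosha and Dicer, and the guide strand then directs Argonaute to messenger RNAs that pair with its seed, the bases near its 5′ end. The protein LIN28 blocks this maturation in stem cells and early embryos, and let-7 levels climb as neural tissue differentiates. In the adult brain the family is among the most abundant groups of miRNAs, and its known targets include cell cycle and growth genes such as Hmga2 and Lin28 itself.

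The mature sequences are shown because members of the family differ by only a few bases outside a shared seed, while their levels differed between tissues and neurons. They are RefSeq entries of GRCm38.p6, written 5′ to 3′ with the seed, bases 2 to 8, in capitals.

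let-7a-5p: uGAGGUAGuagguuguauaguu

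let-7b-5p: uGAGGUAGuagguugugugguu

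let-7c-5p: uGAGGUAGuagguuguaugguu

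let-7d-5p: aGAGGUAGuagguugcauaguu

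let-7e-5p: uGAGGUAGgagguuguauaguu

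let-7f-5p: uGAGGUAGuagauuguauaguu

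let-7g-5p: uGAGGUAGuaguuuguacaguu

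let-7i-5p: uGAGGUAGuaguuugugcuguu

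miR-98-5p: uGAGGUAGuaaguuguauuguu

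All 9 are 22 bases long and carry the seed GAGGUAG. Counted from 1 at the 5′ end and against let-7a-5p, let-7b-5p carries A17G and A19G, let-7c-5p carries A19G, let-7d-5p carries U1A and U16C, and let-7e-5p carries U9G. The other 4 members carry a change at base 11 or 12: let-7f-5p has G12A, let-7g-5p has G12U and U18C, let-7i-5p has G12U, A17G, U18C and A19U, and miR-98-5p has G11A and A19U. Any 2 members differ at 1 to 6 bases. The mismatch and multi-mapping settings behind the deposited values are not given in the sources used here, so reads could have been split between near-identical members, and each single member's level is uncertain to that extent. Of the other entries, let-7k shares the seed and reached at most 1.1 reads per 1000000 (CPM), while let-7j has the seed GAGGUAU and reached at most 7.4 CPM.

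The hairpins of the members are placed here on GRCm38.p6 with GENCODE M21 genes. Mirlet7a-1 (chr13:48538179-48538272), Mirlet7f-1 (chr13:48537829-48537917) and Mirlet7d (chr13:48536012-48536114) lie on the minus strand in exons of the long noncoding gene 6720427I07Rik. Mirlet7c-2 (chr15:85706603-85706697) and Mirlet7b (chr15:85707319-85707403) lie on the plus strand in an exon of Lncppara. Mirlet7e (chr17:17830352-17830444) lies in an intron of Spaca6, 367 bases before Mir125a, and the miR-99b-5p sequence starts upstream of it at chr17:17830194-17830215. Mirlet7c-1 (chr16:77599657-77599750) lies in an intron of Mir99ahg, 656 bases after Mir99a. Mirlet7a-2 (chr9:41536716-41536811) lies between Mir100 and Mir125b-1 in an intron of 3110039I08Rik. Mirlet7g (chr9:106178840-106178927) lies in an intron of Wdr82, Mirlet7i (chr10:122985640-122985724) overlaps an exon of the pseudogene D630033A02Rik, and Mirlet7f-2 (chrX:151912346-151912428) and Mir98 (chrX:151913214-151913321) lie 785 bases apart in an intron of Huwe1. The deposited values give 1 level for each mature sequence, so products of Mirlet7a-1 and Mirlet7a-2, of Mirlet7c-1 and Mirlet7c-2, and of Mirlet7f-1 and Mirlet7f-2 are summed.

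Levels are in CPM, the share of all miRNA signal of a library. The smallest steps of the deposited values place 469319 to 5126628 reads behind each library, and libraries of the same group correlated at 0.98 to 0.99 on the log2 scale in tissue and at circadian time 18 h, but at 0.58 to 0.65 in the neurons. The fewest reads behind a member were 48 and 26 for miR-98-5p in the AVP neurons. Neuronal miRNAs (miR-124-3p, miR-9-5p, miR-128-3p and miR-7a-5p) were present in every group, with summed levels of 17993 to 32405 CPM in the neuron libraries and 50227 to 158532 CPM in the tissue libraries. Levels in bulk tissue do not separate fewer cells of a type from less RNA per cell.

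Taken over all 9 members, the family made up 1.91% to 17.3% of the miRNA signal, with a median of 9.07% over the 27 libraries. AVP neurons stood lowest, with 1.91% and 3.07%, whereas VIP neurons had 9.90% and 10.9% and CCK neurons had 10.9% and 10.1%. In tissue the family held 8.22% and 9.48% in the SCN, 9.07% and 9.29% in the hypothalamus, and 10.7% and 10.6% in the cortex. LP libraries held 17.3% and 14.9% and CTRL libraries held 15.1% and 15.8%. SCN tissue thus differed between parts of the series. Its time course ran between 3.78% and 9.91%, which spans the SCN values of the first part and lies below both CTRL libraries. Tests were made only within a part, and levels set side by side across parts are descriptions. Rescaled over the 27 libraries by median ratios the VIP mean became 17.2%, against 10.4% as deposited, and the AVP libraries stayed lowest.

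**Figure D1:**
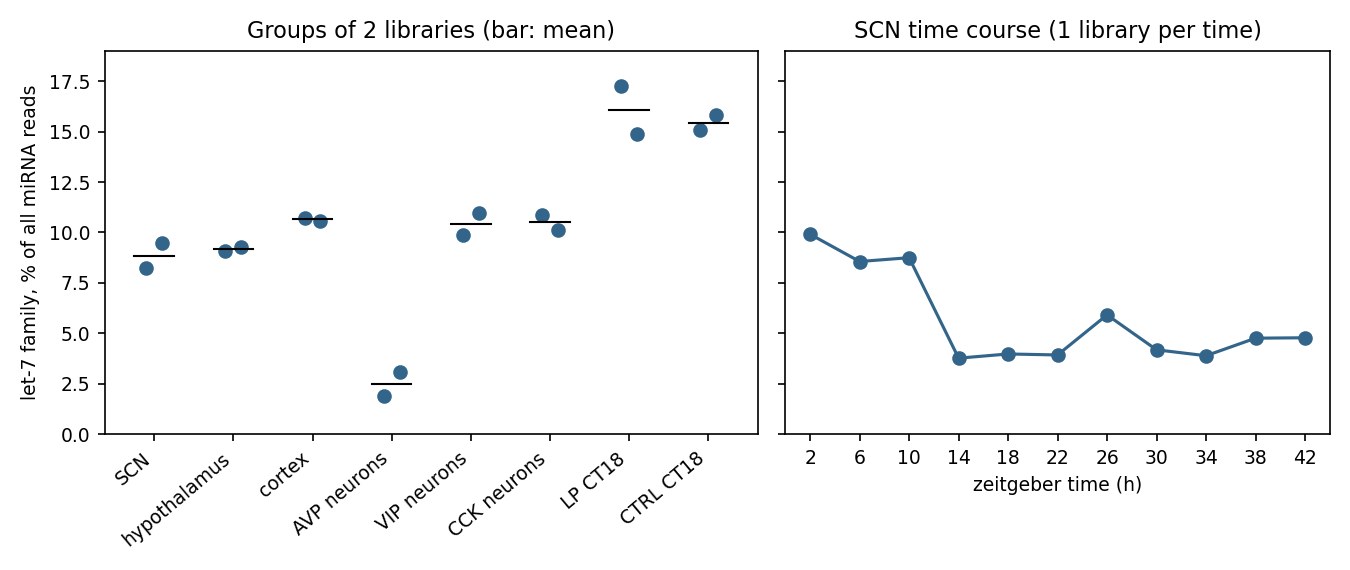
Share of all miRNA reads held by the 9 let-7 guide strands (%), for each library of the 8 groups of 2 (left, bar at the mean) and for each time of the SCN time course (right, hours). The AVP neurons lie lowest at 1.91% and 3.07%, and the time course runs from 9.91% at ZT2 to 4.79% at ZT42.

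The SCN did not carry simply more or less let-7 than the hypothalamus: its family sum overlapped that of the hypothalamus, while the balance within the family was different. Of the 9 members, let-7a, let-7b, let-7c, let-7d and let-7e rose in the SCN and let-7f, let-7g, let-7i and miR-98 fell, by limma with Benjamini-Hochberg adjustment at 0.05. All 9 passed, where 70.9% of the 378 miRNAs tested passed (28% higher and 42.9% lower). Most of the miRNAs tested thus differed between these tissues. The libraries of SCN and hypothalamus did not overlap for any of the 9 members, which also held for 87.3% of the miRNAs tested. The median log2 difference was 0.30 over the members and -0.29 over the miRNAs tested.

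Among those that rose, let-7c-5p had 19649.6 and 24660 CPM in the SCN, against 14352 and 15785 CPM in the hypothalamus (log2 difference 0.55, SE 0.11, limma adjusted p = 0.0017). let-7b-5p had 4785 and 6078 CPM in the SCN and 2858 and 3399 CPM in the hypothalamus (log2 difference 0.79, SE 0.14, limma adjusted p = 0.00065). let-7e-5p had 5467 and 7491 CPM in the SCN and 3963 and 4049.6 CPM in the hypothalamus (log2 difference 0.68, SE 0.14, limma adjusted p = 0.0018). Both SCN libraries lay above both hypothalamus libraries for these members. let-7d-5p had 5655 and 6119 CPM in the SCN and 4069.8 and 4001 CPM in the hypothalamus (log2 difference 0.54, limma adjusted p = 0.00052). let-7a-5p had 16329 and 18719 CPM in the SCN and 13948 and 14423 CPM in the hypothalamus (log2 difference 0.30, SE 0.09, limma adjusted p = 0.013). That call of let-7a-5p was lost without SCN replicate 2 (limma adjusted p = 0.051) or without hypothalamus replicate 1 (0.078).

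Among those that fell, let-7g-5p had 11136 and 12326 CPM in the SCN, against 20912 and 20717 CPM in the hypothalamus (log2 difference -0.83, SE 0.08, limma adjusted p = 1.8e-05). let-7f-5p had 15645 and 15609.5 CPM in the SCN and 23901 and 24022 CPM in the hypothalamus (log2 difference -0.62, SE 0.07, limma adjusted p = 5.2e-05). let-7i-5p had 3259 and 3457 CPM in the SCN and 6026 and 5888 CPM in the hypothalamus (log2 difference -0.83, SE 0.09, limma adjusted p = 3.5e-05). These SCN libraries were the low ones without overlap. miR-98-5p, the least abundant member, had 298 and 342 CPM in the SCN and 651 and 646 CPM in the hypothalamus (log2 difference -1.02, SE 0.13, limma adjusted p = 0.00013).

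The 4 members that fell are the 4 whose sequences above carry a change at base 11 or 12, a grouping seen after the values and given without a test. The other 5 members, which share their bases at 11 and 12 with let-7a-5p, together held 63.1% and 66.5% of the family in the SCN, against 43.2% and 44.8% in the hypothalamus. They held 44.7% and 44.8% in the cortex. Since these 5 are the members that rose in the same SCN libraries, the direction of this difference follows from how they were chosen. In the time course of SCN tissue the same share ran from 51.6% to 65.9%, and at circadian time 18 h it was 55.5% and 59.6% in LP libraries and 59.4% and 60.1% in CTRL libraries.

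Base composition moved with the comparison of SCN and hypothalamus. Over the 321 tested miRNAs with a RefSeq sequence, the log2 difference correlated with GC content at Pearson r = 0.62, a description across miRNAs that share the same 4 libraries. The members run from 7 G or C bases (let-7f, miR-98) to 10 (let-7b). When a linear GC trend was removed from each library, a setting chosen after the values were seen, the differences of let-7f, let-7g, let-7i and miR-98 turned to 0.96, 0.39, 0.03 and 0.55, and those of let-7a to let-7e became 1.30 to 1.54. The direction of these 4 members thus differed between the 2 settings. Removing the trend also gave each library the same mean log2 level, so library scaling changed along with base composition. The part that either has in the result was not tested.

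Marker lists moved with the tissue comparisons as well. The vascular list summed to 3850 to 3863 CPM in the SCN, 10879.7 to 11612 CPM in the hypothalamus and 10824.5 to 11369 CPM in the cortex. The oligodendrocyte list summed to 1004 to 1551 CPM in the SCN, 3566 to 4185 CPM in the hypothalamus and 1458 to 1953 CPM in the cortex. The microglia and leukocyte list summed to 1894.5 to 2077 CPM in the SCN, 2483.5 to 2692 CPM in the hypothalamus and 3297.5 to 3539 CPM in the cortex. These 3 lists were thus lower in the SCN than in the hypothalamus, as was the neuronal list given below. The list of choroid plexus and ciliated cells summed to 8623 to 8890.4 CPM in the SCN, 7212 to 7424 CPM in the hypothalamus and 1175 to 1336 CPM in the cortex. The neuronal list summed to 71996 to 74516 CPM in the SCN, 112110.2 to 113479 CPM in the hypothalamus and 152125 to 158532 CPM in the cortex. Among the markers found, miR-142-3p and miR-449a-5p were at 0 in both SCN libraries and miR-34b-5p in both cortex libraries. The part of these markers in the differences between tissues was not tested.

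**Figure D2:**
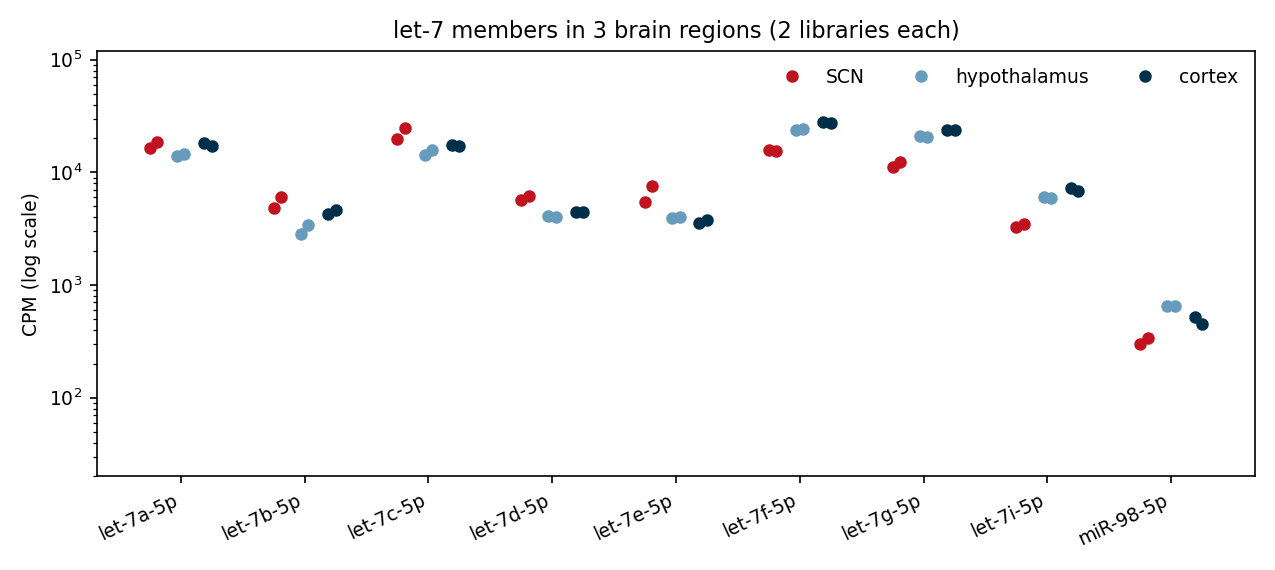
Level of each let-7 member (CPM, log scale) in both libraries of the SCN, the hypothalamus and the cortex. The SCN points of let-7a to let-7e lie above those of the hypothalamus and the SCN points of let-7f, let-7g, let-7i and miR-98 lie below them, as for let-7g-5p with 11136 and 12326 CPM in the SCN against 20912 and 20717 CPM in the hypothalamus.

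Against the cortex, the SCN showed the same make-up with fewer members raised. let-7c, let-7d and let-7e rose, let-7f, let-7g, let-7i and miR-98 fell, and let-7a and let-7b did not pass, where 80.2% of the 378 miRNAs passed by limma (41.3% higher and 38.9% lower). This comparison uses the same SCN libraries as the one above. The libraries did not overlap for 8 of the 9 members, beside 90.2% of the miRNAs tested. let-7e-5p had the largest difference upward, with 5467 and 7491 CPM in the SCN against 3560 and 3744 CPM in the cortex (log2 difference 0.81, SE 0.14, limma adjusted p = 0.00046). let-7i-5p had the largest downward, with 3259 and 3457 CPM in the SCN against 7208 and 6884.5 CPM in the cortex (log2 difference -1.07, SE 0.09, limma adjusted p = 3.3e-06). let-7g-5p followed with a log2 difference of -1.02, let-7f-5p with -0.82 and miR-98-5p with -0.60. The 3 differences upward of let-7c-5p, let-7d-5p and let-7e-5p were 0.33, 0.39 and 0.81.

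Under median-ratio scaling let-7c-5p and let-7d-5p lost their calls against the cortex (log2 differences 0.17 and 0.23, limma adjusted p = 0.26 and 0.07). The call of let-7c-5p was also lost with no filter (limma adjusted p = 0.068). The same held without SCN replicate 2, cortex replicate 1 or cortex replicate 2 (log2 differences 0.17, 0.35 and 0.32). With the GC trend removed let-7f-5p and miR-98-5p turned to 0.49 and 0.71, let-7g-5p stood at -0.14 without passing, and let-7i-5p remained lower at -0.63. let-7a-5p had 16329 and 18719 CPM in the SCN and 18048 and 17259 CPM in the cortex, which overlapped (log2 difference -0.01, SE 0.09, limma adjusted p = 0.89). Its difference was 0.50 under quantile normalization and 0.86 with the GC trend removed.

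The hypothalamus and the cortex were close in make-up, with let-7f-5p first and let-7g-5p next in both. let-7a, let-7b, let-7f and let-7i fell in the hypothalamus and miR-98 rose, where 58.2% of the 378 miRNAs passed by limma (41.8% higher and 16.4% lower). let-7b-5p had 2858 and 3399 CPM in the hypothalamus and 4228 and 4632 CPM in the cortex (log2 difference -0.51, SE 0.14, limma adjusted p = 0.01). miR-98-5p had 651 and 646 CPM in the hypothalamus and 518.5 and 448.5 CPM in the cortex (log2 difference 0.43, SE 0.13, limma adjusted p = 0.021). The libraries did not overlap for any of the 9 members, beside 83.9% of the miRNAs tested. These calls were the least stable in tissue: leaving out 1 library gave 0 to 7 calls, with none without hypothalamus replicate 1, where 176 of 374 miRNAs passed, and quantile normalization kept 1.

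Within each tissue the order of the members was clear except in the middle. In the SCN let-7c-5p led both libraries, then let-7a-5p, let-7f-5p and let-7g-5p followed, and let-7b, let-7d and let-7e overlapped between 4785 and 7491 CPM. In the hypothalamus let-7f-5p and let-7g-5p led, let-7a-5p overlapped let-7c-5p, and let-7d-5p overlapped let-7e-5p. In the cortex let-7f-5p and let-7g-5p led as well, let-7a-5p overlapped let-7c-5p, and let-7b-5p overlapped let-7d-5p. miR-98-5p was last in all 3 tissues.

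**Figure D3:**
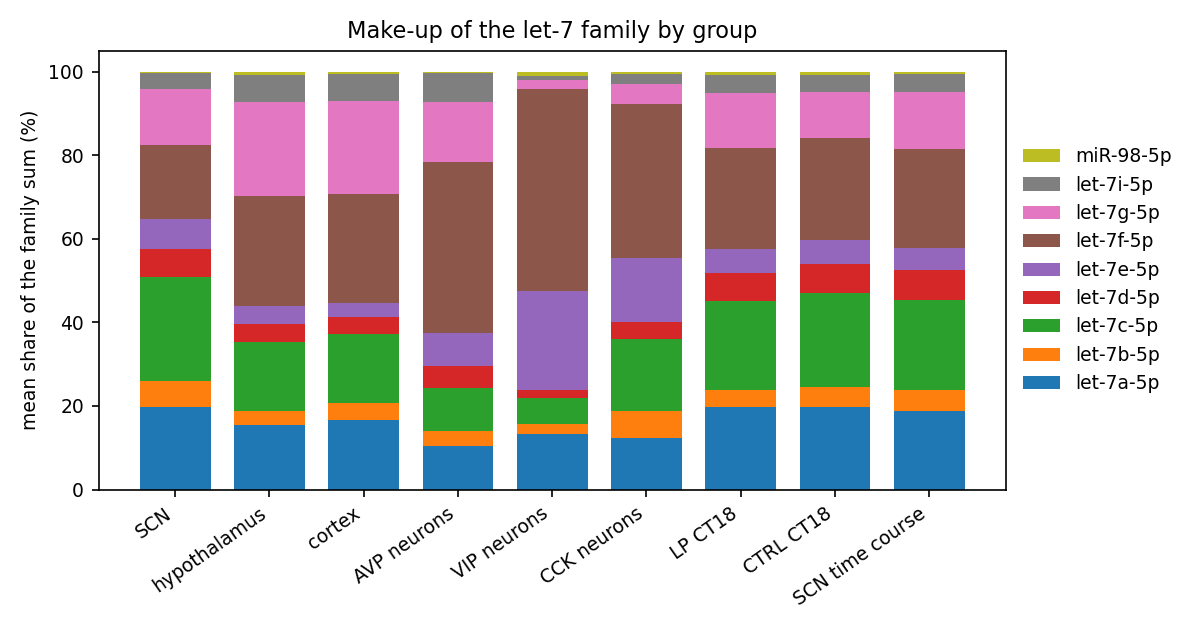
Mean share of each member in the family sum (%, bars stacked from 0 to the whole) for the 8 groups of 2 libraries and for the 11 libraries of the SCN time course. let-7f-5p takes 36.6% to 52.0% of the family in the neuron libraries, and let-7e-5p takes 22.6% and 24.7% in the VIP neurons.

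AVP neurons held less let-7 than VIP neurons, and let-7e and miR-98 were furthest apart. let-7a, let-7e, let-7f and miR-98 fell in AVP neurons, let-7i rose, and let-7b, let-7c, let-7d and let-7g did not pass, where 32.8% of the 305 miRNAs tested passed by limma (18% higher and 14.8% lower). Libraries did not overlap for 8 of the 9 members, beside 64.6% of the miRNAs tested. The median log2 difference was -1.52 over the members and 0.26 over the miRNAs tested. let-7e-5p had 1859.9 and 1875 CPM in AVP neurons, against 22380.3 and 27029.7 CPM in VIP neurons, a level 13.2-fold lower (log2 difference -3.72, SE 0.16, limma adjusted p = 0.00058). miR-98-5p had 89.5 and 28.6 CPM in AVP neurons and 905 and 1257 CPM in VIP neurons (log2 difference -4.39, SE 0.63, limma adjusted p = 0.0086). Its AVP libraries differed widely from each other, but both stayed below the VIP libraries.

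let-7f-5p, the leading member in all 6 neuron libraries, had 8376 and 11729 CPM in AVP neurons against 51472 and 48685 CPM in VIP neurons (log2 difference -2.34, SE 0.19, limma adjusted p = 0.0047). let-7a-5p had 1942 and 3269 CPM in AVP neurons and 11396 and 16617 CPM in VIP neurons (log2 difference -2.45, SE 0.33, limma adjusted p = 0.0083). With the GC trend removed let-7e and miR-98 still passed (log2 differences -3.09 and -3.23), whereas let-7a and let-7f did not (limma adjusted p = 0.054 and 0.081), and let-7g-5p then passed upward at 1.42 (0.04). let-7i-5p was the one member called higher as deposited, at 1749.9 and 1450.5 CPM in AVP neurons and 921 and 993 CPM in VIP neurons (log2 difference 0.74, SE 0.19, limma adjusted p = 0.045). Median-ratio scaling left a difference of 0.09 for it (limma adjusted p = 0.80), and leaving out any 1 of the 6 libraries ended its call.

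Against CCK neurons more members were lower in AVP neurons. let-7a, let-7b, let-7c, let-7d, let-7e, let-7f and miR-98 fell and let-7g and let-7i did not pass, where 16.7% of the 305 miRNAs passed by limma (2.62% higher and 14.1% lower). The AVP libraries are the same as above. Libraries did not overlap for 8 of the 9 members, beside 58% of the miRNAs tested. let-7e-5p had 1859.9 and 1875 CPM in AVP neurons and 17191 and 15168 CPM in CCK neurons, 8.66-fold lower (log2 difference -3.11, SE 0.16, limma adjusted p = 0.0039). let-7b-5p had 446 and 1443 CPM in AVP neurons and 7459.7 and 5967 CPM in CCK neurons (log2 difference -3.06, SE 0.61, limma adjusted p = 0.031). let-7c-5p had 1442 and 4008 CPM in AVP neurons and 19149 and 17401 CPM in CCK neurons (log2 difference -2.92, SE 0.55, limma adjusted p = 0.026). In each case both AVP libraries were low, although AVP replicate 2 had 3.24 times the let-7b-5p of replicate 1. let-7d-5p had 1158.5 and 1396 CPM in AVP neurons and 3972 and 4242 CPM in CCK neurons (log2 difference -1.69, limma adjusted p = 0.0068).

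Leaving out either CCK library, or removing the GC trend, ended all of these calls. Without CCK replicate 1 or CCK replicate 2 none of the 9 passed, with log2 differences of let-7b-5p at -2.90 and -3.22 and of let-7e-5p at -3.02 and -3.20. In those settings 0 of the 272 and 0 of the 270 miRNAs tested passed, so the loss was not particular to the members. With the GC trend removed none of the members passed either, where 34 of 264 miRNAs did. The difference of let-7e became -1.44 (limma adjusted p = 0.11) and those of let-7d and let-7f became -0.02 each. That setting also gave each library the same mean log2 level, which changes library scaling. Over the 264 miRNAs the log2 difference as deposited correlated with GC content at Pearson r = 0.09. The parts of scaling and of base composition in the loss were not tested. let-7g-5p had 2071 and 5538 CPM in AVP neurons and 5120 and 4813 CPM in CCK neurons, which overlapped (limma adjusted p = 0.53).

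VIP neurons and CCK neurons held nearly the same family sum with different members in it. let-7e rose in VIP neurons and let-7d and let-7i fell, where 29.8% of the 305 miRNAs passed by limma (8.2% higher and 21.6% lower). let-7e-5p had 22380.3 and 27029.7 CPM in VIP neurons and 17191 and 15168 CPM in CCK neurons (log2 difference 0.61, SE 0.16, limma adjusted p = 0.048). let-7i-5p had 921 and 993 CPM in VIP neurons and 2416 and 2635.5 CPM in CCK neurons (log2 difference -1.40, SE 0.19, limma adjusted p = 0.012). let-7d-5p had 2052 and 1903 CPM in VIP neurons and 3972 and 4242 CPM in CCK neurons (log2 difference -1.05, SE 0.18, limma adjusted p = 0.02). The 2 groups did not overlap for 8 of the 9 members, beside 62.6% of the miRNAs tested. As deposited, every log2 difference here stood at -0.82 relative to median-ratio scaling, under which let-7d and let-7i no longer passed (limma adjusted p = 0.41 and 0.12), let-7e stood at 1.43 and let-7f passed at 1.19. None of the 9 passed without CCK replicate 1, without CCK replicate 2 or with the GC trend removed, where 2 of 272, 1 of 270 and 38 of 264 miRNAs did. The call of let-7e-5p was also lost with a pseudocount of 10 (limma adjusted p = 0.052), with no filter (0.061), with the replicate block (0.11), without AVP replicate 1 (0.072), without AVP replicate 2 (0.07) and without VIP replicate 2 (0.084).

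Within the family, which is independent of library scaling, let-7f-5p made up 43.8% and 38.2% of the sum in AVP neurons, 52.0% and 44.5% in VIP neurons and 36.6% and 37.3% in CCK neurons. let-7e-5p made up 9.72% and 6.10% in AVP neurons, 22.6% and 24.7% in VIP neurons and 15.8% and 15.0% in CCK neurons. let-7g-5p ran the other way, with 10.8% and 18.02% in AVP neurons, 2.76% and 1.86% in VIP neurons and 4.70% and 4.75% in CCK neurons. The shares of let-7e and let-7g did not overlap between any 2 of the 3 types. That was not particular to them, since it also held for let-7c, let-7d, let-7f, let-7i and miR-98. Only let-7a and let-7b overlapped between types.

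Markers of other cells varied between the neuron types. The vascular list (4 of 7 found) summed to 3.3 to 70.8 CPM in AVP neurons, 59.5 to 81.0 CPM in VIP neurons and 138 to 176.5 CPM in CCK neurons, with miR-126-3p at 0 in both AVP libraries. The microglia and leukocyte list (6 of 6 found) summed to 0 to 48.5 CPM in AVP neurons, 112 to 159 CPM in VIP neurons and 38.3 to 75.9 CPM in CCK neurons, with both miR-142 strands at 0 in all 3 types. The oligodendrocyte list (4 of 7 found) summed to 45.1 to 134 CPM in AVP neurons, 756 to 1249 CPM in VIP neurons and 631 to 741.5 CPM in CCK neurons, with miR-219-5p and miR-219-2-3p at 0 in all 3. The list of choroid plexus and ciliated cells (6 of 6 found) differed most, with 83.8 to 290 CPM in AVP neurons, 7564 to 9453 CPM in VIP neurons and 1499.9 to 1914 CPM in CCK neurons, beside 8623 to 8890.4 CPM in SCN tissue. miR-211-5p, miR-34b-5p and miR-449a-5p of that list were at 0 in all 3 types. The erythrocyte list (4 of 4 found) summed to 2107 to 2164 CPM in AVP neurons, 943 to 1169.7 CPM in VIP neurons and 980.1 to 1014.7 CPM in CCK neurons. In AVP and CCK neurons miR-451a, miR-144-3p and miR-144-5p were all at 0, so these sums are miR-486-5p alone. In VIP neurons miR-144-5p was at 0. The part of these markers in the differences between neuron types was not tested.

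**Figure D4:**
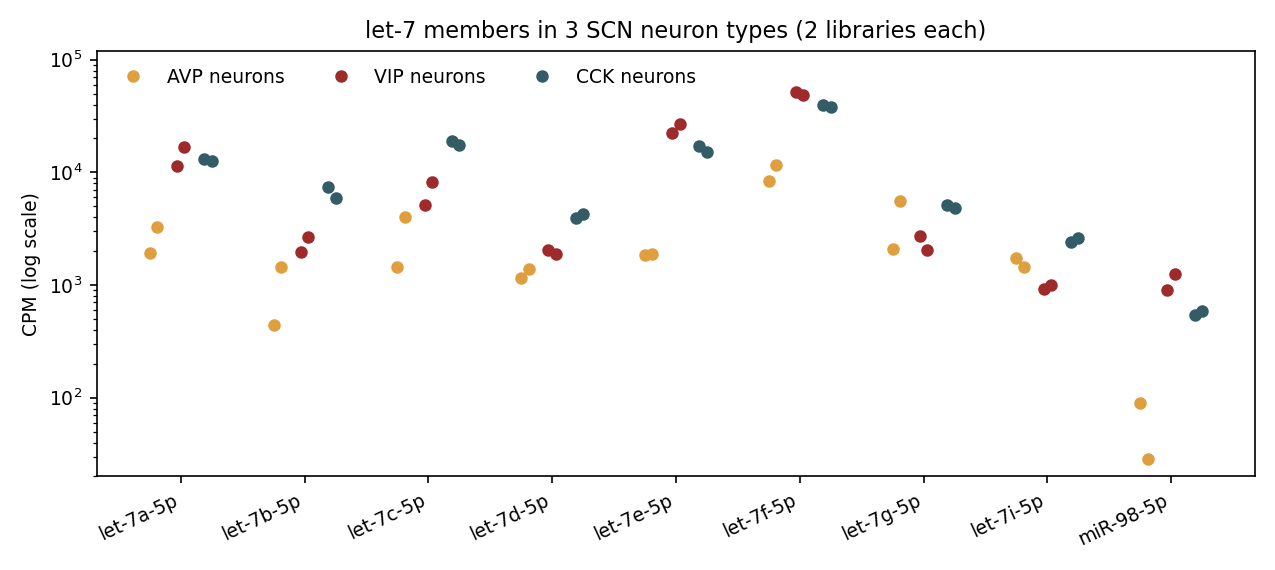
Level of each let-7 member (CPM, log scale) in both libraries of AVP, VIP and CCK neurons. The AVP points lie below those of both other types for let-7a to let-7f and miR-98, and by most for let-7e-5p (1859.9 and 1875 CPM) and miR-98-5p (89.5 and 28.6 CPM).

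At circadian time 18 h no member passed between LP and CTRL libraries, and the groups overlapped for all 9, whereas 18.6% of the 317 miRNAs tested did not overlap. By limma 0% of them passed, and 1 of them, but none of the 9, had an unadjusted p under 0.05. Log2 differences of the members ran from -0.06 to 0.29, each with a limma adjusted p of 0.99. let-7g-5p had the widest spread, with 27833 and 15412 CPM in LP libraries and 18099 and 15848 CPM in CTRL libraries (log2 difference 0.29, SE 0.29). LP replicate 1 alone was high. Without LP replicate 2 the call of let-7g-5p passed, at a log2 difference of 0.72 (limma adjusted p = 0.01), and it then rested on 1 LP library, in a setting where 21 of 309 miRNAs passed. let-7c-5p had 35831 and 32400.1 CPM in LP libraries and 33547 and 36555 CPM in CTRL libraries, and let-7f-5p had 39656 and 37503 CPM in LP libraries and 35912 and 39665 CPM in CTRL libraries. Both had standard errors of 0.14 to 0.15 on the log2 scale.

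Along the SCN time course no member passed a test for a 24 h rhythm. limma with a cosine and a sine of 24 h gave amplitudes of 0.26 to 0.57 on the log2 scale and an adjusted p of 0.95 for each member, and 0% of the 357 miRNAs tested passed. Before adjustment, 6 of the 357 were under the threshold of 0.05, and 1 of these was a member, let-7f-5p, with an amplitude of 0.51. With 1 library per time and 8 residual degrees of freedom, the fit rests on 11 libraries. The lowest, median and highest levels were 7613, 10854.5 and 25929 CPM for let-7f-5p, 7205, 9855 and 21903 CPM for let-7c-5p, and 6784, 9117 and 17173 CPM for let-7a-5p. miR-98-5p ran from 138 CPM through a median of 193 CPM to 616 CPM.

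The family sum was 9.91% of the signal at ZT2, 8.56% at ZT6, 8.75% at ZT10, 3.78% at ZT14, 3.98% at ZT18 and 3.94% at ZT22. It was 5.92% at ZT26, 4.19% at ZT30, 3.90% at ZT34, 4.77% at ZT38 and 4.79% at ZT42. The first 3 libraries held the highest sums. Times 24 h apart can be set side by side, though with 1 library each they carry no test. At ZT26 the sum was 0.597 times that at ZT2, at ZT30 it was 0.489 times that at ZT6, at ZT34 it was 0.445 times that at ZT10, at ZT38 it was 1.26 times that at ZT14 and at ZT42 it was 1.201 times that at ZT18. So the same clock time gave unlike levels in the first 3 pairs and closer ones in the last 2.

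By member, 7 of 9 were at least 1.5-fold lower at ZT26 than at ZT2, as were 57.4% of the 357 miRNAs. At ZT30 against ZT6 it was 9 of 9, beside 30.8% of the miRNAs, and at ZT34 against ZT10 it was 8 of 9, beside 24.9%. No member was higher by that fold in these 3 pairs, beside 5.88%, 17.4% and 20.4% of the miRNAs. The median ratio of the miRNAs tested was 0.61 for ZT26 over ZT2, 0.91 for ZT30 over ZT6 and 1.0 for ZT34 over ZT10, where the members' medians were 0.51, 0.45 and 0.45. At ZT38 against ZT14 and at ZT42 against ZT18 no member was lower by that fold, beside 20.4% and 4.2% of the miRNAs, and 1 member was higher in each, beside 10.1% and 19.3%. let-7e-5p had 1839.5 CPM at ZT30 against 5362 CPM at ZT6, and 1943 CPM at ZT34 against 6311.5 CPM at ZT10. let-7g-5p had 5525 CPM at ZT26 against 16597.5 CPM at ZT2, but 5681 CPM at ZT34 against 7680.4 CPM at ZT10. The labels give no batch for these libraries, so library and time cannot be told apart.

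**Figure D5:**
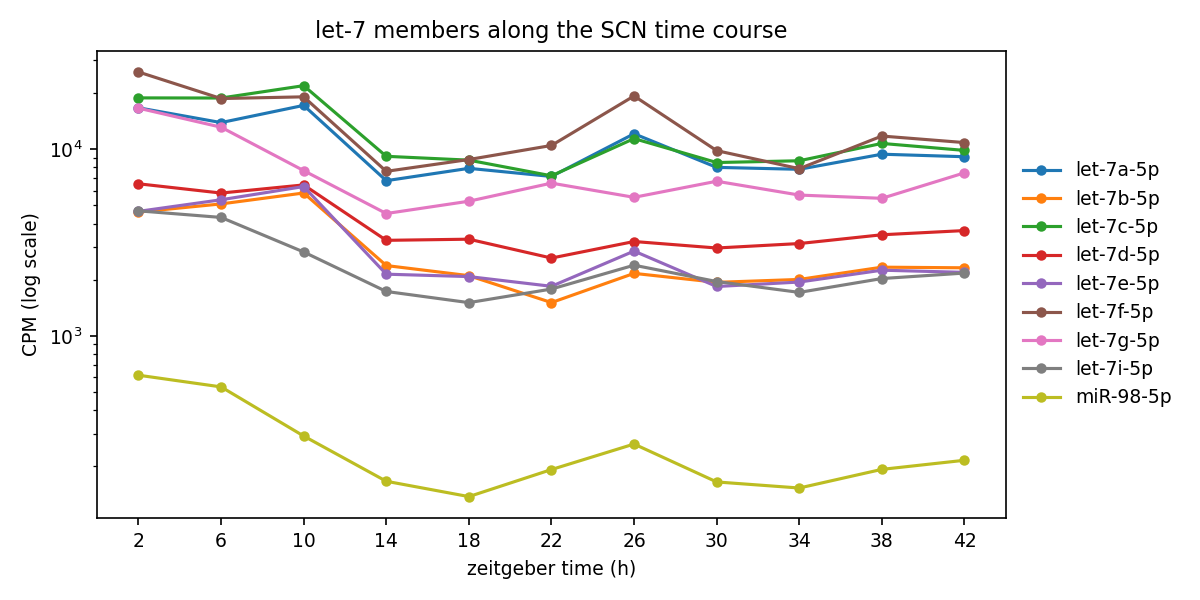
Level of each let-7 member (CPM, log scale) in the SCN time course against zeitgeber time (hours), with 1 library per time. Apart from let-7f-5p, whose ZT26 value lies above those of ZT6 and ZT10, the lines lie highest at ZT2 to ZT10, as for let-7e-5p with 5362 CPM at ZT6 and 6311.5 CPM at ZT10, against 1839.5 CPM at ZT30 and 1943 CPM at ZT34.

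Through Mirlet7a-2, Mirlet7c-1 and Mirlet7e, let-7a, let-7c and let-7e share primary transcripts with 5 other miRNAs, miR-99a-5p, miR-99b-5p, miR-100-5p, miR-125a-5p and miR-125b-5p. The hairpins of the other members do not lie with these partners. In the SCN against the hypothalamus miR-99b, miR-125a and miR-125b rose and miR-99a and miR-100 fell by limma, and the same 3 and 2 did so against the cortex. miR-125a-5p, from the hairpin next to Mirlet7e, had 127587 and 120530.2 CPM in the SCN against 35526 and 33275 CPM in the hypothalamus (log2 difference 1.85, SE 0.09, limma adjusted p = 1.1e-06). miR-100-5p, upstream of Mirlet7a-2, had 11159 and 12005 CPM in the SCN against 26260.2 and 25601 CPM in the hypothalamus (log2 difference -1.16, SE 0.08, limma adjusted p = 4.5e-06). In the hypothalamus against the cortex all 5 rose as deposited, where 41.8% of the 378 miRNAs did. Under median-ratio scaling their differences were -0.16 to 0.18 and none passed. Under quantile normalization miR-99a fell (log2 difference -0.18), and miR-99b, miR-100, miR-125a and miR-125b rose (0.75, 0.64, 0.72 and 0.53).

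The level of miR-125a-5p over that of let-7e-5p varied widely between groups. It was 146 and 123 in AVP neurons, 12.5 and 14.6 in VIP neurons and 10.7 and 12.1 in CCK neurons. miR-99b-5p over let-7e-5p was 24.8 and 25.3 in AVP neurons, 0.64 and 0.77 in VIP neurons and 1.69 and 1.91 in CCK neurons. So AVP neurons stood apart from the other neuron types within this cluster, with low let-7e-5p beside 46089 and 47358 CPM of miR-99b-5p. Some SCN libraries of the time course came near them. Their miR-99b-5p over let-7e-5p was 21.1 at ZT22 and 19.3 at ZT30, with 1844 and 1839.5 CPM of let-7e-5p, but 3.24 at ZT10. In tissue the ratio of miR-125a-5p to let-7e-5p was 23.3 and 16.1 in the SCN, 8.96 and 8.22 in the hypothalamus and 6.54 and 7.44 in the cortex. In the time course it was 20.7, 22.3 and 25.2 at ZT2, ZT6 and ZT10, and between 49.2 and 76.6 at the 8 later times. LP libraries had 6.82 and 13.0, and CTRL libraries had 11.9 and 11.8.

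The passenger strands, which are the strands that are mostly discarded, were scarce. All 12 on the list were found, and their sum was 0.27% to 1.94% of the guide sum. let-7a-1-3p and let-7c-2-3p are the same sequence with equal deposited values and were counted once. let-7d-3p alone made up 55.0% to 100% of the passenger sum. It averaged 462 CPM in the SCN and 164 CPM in the hypothalamus, and it rose (log2 difference 1.49, SE 0.17, limma adjusted p = 5.6e-05), beside its guide let-7d-5p with a log2 difference of 0.54. Only 6 of the 12 passed the filter on low values in tissue. Of these let-7d-3p rose against the hypothalamus, and the shared let-7a-1-3p and let-7c-2-3p sequence and let-7i-3p fell. The passenger of let-7d-5p as a share of its guide was 4.51% and 26.5% in AVP neurons, 34.4% and 29.4% in VIP neurons and 10.3% and 15.5% in CCK neurons.

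Over the 27 libraries, the miRNAs outside the family whose log2 level was most like the family sum were miR-181d-5p (Pearson r = 0.92), miR-181b-5p (0.85), miR-26b-5p (0.81), miR-384-5p (0.73) and miR-382-5p (0.72), out of 115 with a value of at least 10 CPM in every library. Over the 11 libraries of the time course they were miR-379-5p (0.98), miR-181d-5p (0.95) and miR-1198-5p (0.95), out of 258. These are descriptions: the 27 libraries fall into groups, and libraries of 1 part may share preparation, which the labels do not give. Among the members themselves, each set against the sum of the others over 27 libraries, r was highest for let-7a-5p and miR-98-5p (0.92 each) and lowest for let-7g-5p (0.50).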

How the data were processed

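Small-RNA libraries were aligned with Bowtie to mm10 (GRCm38), per the submitters' processing notes; versions, adapter trimming, mismatch and multi-mapping settings are not given in the sources used here. The deposited files give 1 normalized signal per mature miRNA, scaled by the authors to a total near 10000000 per library and rounded down, as read from the values; a miRNA not listed was taken as 0. Signal divided by 10 is printed as CPM. Because values sum to a fixed total, a change in 1 abundant miRNA moves the others.

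log2(value + 1) was tested with limma 3.58.1 (R 4.3.3) with an intensity trend and Benjamini-Hochberg adjustment over all miRNAs tested, threshold 0.05. A miRNA was tested when 2 or more libraries of its model (3 in the time course) reached a deposited value of 100, which is 10 CPM. Tissues, neurons and circadian time 18 h had a model each, and the time course had a cosine and a sine of 24 h. Fold differences of low miRNAs are understated by the pseudocount. The fit was also run on simulated data that left the most abundant miRNAs unchanged and used the same spread for every part. That run does not show how accurate the calls of the abundant members are. The smallest steps between low values gave the reads behind each library; 3 reads correspond to 0.585 to 6.39 CPM, for counting error only. Of the 844 entries, 690 (81.8%) matched a RefSeq sequence by name. Tables and figures were made with Python 3.11.15, pandas 2.3.3 and matplotlib 3.10.9.

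The members, marker lists, partner and passenger lists and tests were chosen with earlier results of these data known. Named miRNAs were the 9 members, the 5 partners, the 12 passengers, let-7j, let-7k and those most like the family sum (5 over 27 libraries, 3 over the time course). Alternatives were a pseudocount of 10, no filter, median-ratio scaling, quantile normalization, a replicate block and leaving out each library. Removal of a linear GC trend, and leaving out ZT2, ZT6 and ZT10, were added after seeing the data. The GC setting used the tested miRNAs with a RefSeq sequence. It also gave each library the same mean log2 level over them, so it changed library scaling as well. Replicate numbers did not pair the samples by the labels.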

Additional observations from a re-analysis of the deposited data

How the results depend on the processing

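Of 900 values of single members under the alternatives, 769 kept their side of the threshold, 30 newly passed and 92 no longer passed. Another 9 changed direction with a call before or after. The 769 include changes of direction that had no call in either setting, and 162 rhythm amplitudes, which have no sign. Among the 9 were let-7a-5p in the SCN against the cortex (0.50 under quantile normalization and 0.86 with the GC trend removed). Its difference in the hypothalamus against the cortex was another, at 0 after rounding under quantile normalization. The rest follow. With the GC trend removed, let-7f-5p, let-7g-5p, let-7i-5p and miR-98-5p in the SCN against the hypothalamus gave 0.96, 0.39, 0.03 and 0.55, and let-7f-5p and miR-98-5p in the SCN against the cortex gave 0.49 and 0.71. Members called in the hypothalamus against the cortex numbered 5 as deposited, 3 with no filter, 1 under quantile normalization and 3 with the replicate block. They numbered 7 under median-ratio scaling and 7 with the GC trend removed, all lower, and miR-98-5p was not among them. Those in VIP against CCK neurons numbered 3 as deposited, 1 under quantile normalization, 1 with the replicate block and 0 with the GC trend removed. That last setting left 3 in AVP against VIP neurons, where 5 passed as deposited, and 0 in AVP against CCK neurons, where 7 did. Leaving out 1 library gave 8 to 9 calls in the SCN against the hypothalamus, 6 to 8 in the SCN against the cortex, 0 to 7 in the hypothalamus against the cortex, 4 to 6 in AVP against VIP neurons, 0 to 8 in AVP against CCK neurons, 0 to 5 in VIP against CCK neurons, 0 to 1 in LP against CTRL and 0 for the rhythm, which also gave 0 without ZT2, ZT6 and ZT10. A group with 1 library left was assumed to vary like the others. The cause of these changes was not tested. Deposited minus median-ratio log2 differences were -0.26 for the SCN against the hypothalamus, 0.16 for the SCN against the cortex, 0.42 for the hypothalamus against the cortex, 0.65 for AVP against VIP, -0.17 for AVP against CCK, -0.82 for VIP against CCK and 0.08 for LP against CTRL. Libraries of the same number deviated together at r = -0.09 to 0.12 in tissue and neurons and 0.25 at circadian time 18 h. These values do not settle whether same-numbered libraries share an animal or a preparation, which the labels do not give. The replicate block gave 9 calls in the SCN against the hypothalamus. Planned count tests on whole reads were not run. The family share under median-ratio scaling moved to 17.2% in VIP neurons, 8.29% in the hypothalamus, 13.1% in CTRL and 13.0% in LP libraries. Depth limits miR-98-5p in AVP neurons most, at 48 and 26 reads.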
